A study of Homo sapiens with 24 samples.

Results

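KLF transcription factors are the subject here, a list of 10 genes: KLF2, KLF4, KLF5, KLF6, KLF7, KLF9, KLF10, KLF11, KLF13 and KLF15. They were matched by Ensembl identifier to 10 of the 61533 genes of the count table, and each had its level read in all 24 libraries. The rule that lists them uses no measured value. All 10 passed the filter on low counts in the fit over line and time, which kept 23651 genes.

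KLF proteins bind GC-rich and CACCC-containing DNA through a C-terminal domain of zinc fingers that the family shares, and differ in the N-terminal parts that recruit partners. KLF9, KLF10, KLF11 and KLF13 are known to repress genes through the corepressor SIN3A, while KLF2, KLF4, KLF5, KLF6 and KLF7 are better known as activators that bind acetyltransferases. Several of these genes are early responders to hormones, growth factors or shear stress, and KLF9 and KLF15 are well known glucocorticoid-induced genes in other tissues. KLF10 was first described as a gene induced by TGF-beta in osteoblasts.

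The assay was 4sU-seq, a measure of newly made RNA in which cells take up 4-thiouridine (200 µM for 1 h) and the RNA that contains it is purified and sequenced. The cells were U2OS, a human osteosarcoma line with little glucocorticoid receptor (GR) of its own. Each of the 3 lines stably carried a GR with a C-terminal HaloTag: the wild-type receptor (wt), the K492A receptor (SoF) or the R470A receptor (Ctrl). Per the paper, K492A strongly reduces RNA affinity and, to a smaller degree, DNA affinity. R470A has a moderate loss of DNA affinity, chosen to match that of K492A, and keeps wild-type RNA affinity. These affinities were measured in vitro on a part of GR. Dexamethasone, a synthetic GR agonist, was added at 100 nM for 1, 2 or 3 h. Cells given 0.01% ethanol served as the 0 h control, with 2 libraries per line and time. The medium was replaced when dexamethasone or ethanol was given, and no source states how long the 0 h cells stayed in ethanol. No ethanol group was matched to each dexamethasone time. Hours of hormone and hours since the change of medium thus cannot be told apart. Constructs were integrated by transposon under puromycin selection and each line was a single sorted population, so the receptor variant and the cell population cannot be told apart. No source states that the 2 libraries of a group came from separate cultures beyond their replicate numbers, so the p-values measure the spread between these libraries. Labelled RNA was biotinylated and pulled down with replicates handled in pairs, so that spread leaves out pulldown variation shared within a pair.

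Total counts lay between 8106036 and 15820806 per library. Of 7 osteoblast or mesenchymal markers, RUNX2, ALPL, COL1A1, SPARC and VIM were present in every library, while COL1A2 did not exceed 0.602 CPM and TWIST1 did not exceed 0.0674 CPM. CPM are counts scaled to a common library total with TMM factors. The markers of epithelial, blood and endothelial cells reached at most 8.09 CPM, and of the 2 neuronal markers SNAP25 lay between 15.1 and 72.4 CPM and SYP between 1.93 and 6.21 CPM. Transcripts counted to NR3C1, which encodes GR and takes in the construct where its sequence matches, had medians of 633 CPM in wt, 2187 CPM in SoF and 2858 CPM in Ctrl. They ranged from 334 to 1595 CPM in wt, from 1118 to 6273 CPM in SoF and from 1627 to 7658 CPM in Ctrl. These are RNA levels, whereas the paper picked sorted fractions so that nuclear GR protein was matched between the lines. What part receptor level had in any difference between lines was not tested.

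Before any hormone, the 10 genes spanned a wide range of levels. Per kilobase of merged exons, the 0 h mean over 6 libraries was 99.6 CPM per kb for KLF10, 89.8 for KLF6, 53.2 for KLF5, 34.7 for KLF7 and 27.3 for KLF11. Lower down came KLF2 at 14.6, KLF13 at 13.3 and KLF9 at 7.38 CPM per kb. KLF15 at 0.374 and KLF4 at 0.138 CPM per kb were close to absent. Of the 9 neighbouring pairs in this order, 5 overlapped over the 6 libraries: KLF10 with KLF6, KLF7 with KLF11, KLF2 with KLF13, KLF13 with KLF9, and KLF15 with KLF4. The other 4 pairs were separate, and the widest gap on a log scale lay between KLF9 and KLF15.

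**Figure D1:**
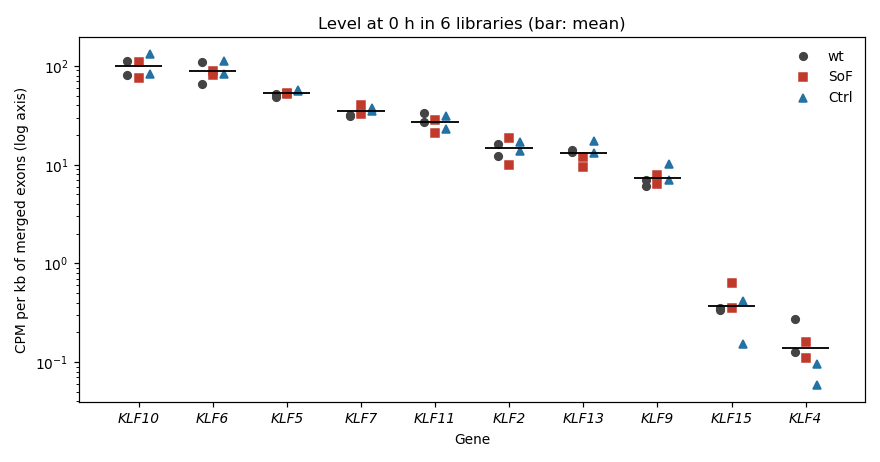
Level of each KLF gene at 0 h in CPM per kb of merged exons on a log axis, with 1 point for each of 6 libraries (circles wt, squares SoF, triangles Ctrl) and a bar at the mean. The genes fall from 99.6 CPM per kb for KLF10 to 0.138 for KLF4, with a clear drop between KLF9 and KLF15.

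The dexamethasone response was tested at each time against 0 h, within each line and as the average over the 3 lines, by edgeR's quasi-likelihood F test with Benjamini-Hochberg adjustment over all 23651 genes. An adjusted p under 0.05 counted as a call. In the average, 2 of 10 KLF genes were called at 1 h (KLF6 and KLF9, both higher) against 1.28% of all genes. At 2 h 5 were called (KLF9, KLF10, KLF11, KLF13 and KLF15, all higher) against 28.8% of all genes. At 3 h 4 were called against 40.3%, with KLF9 and KLF13 higher and KLF2 and KLF10 lower. The share of KLF genes called at 3 h, 40%, was thus the same as that of all genes. The median log2 fold change over the 10 was 0.02, 0.24 and -0.19 at 1, 2 and 3 h, beside medians of 0.01, -0.03 and -0.03 over all genes tested.

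Within lines, where 2 libraries stood against 2, the counts were as high as the average in SoF at 3 h and lower elsewhere. In wt edgeR called none at 1 h, against 0.156% of all genes, and DESeq2 called 1, against 0.515%. An unadjusted edgeR p under 0.05 was held by 4 KLF genes, against 2602 of all 23651 genes. In the same line KLF9 and KLF13 were called at 2 h, against 4.6%, and again at 3 h, against 10.7%. In SoF 1 was called at 1 h (KLF9, against 0.165%), 4 at 2 h (KLF9, KLF10, KLF13 and KLF15, against 5.68%) and 4 at 3 h (KLF9, KLF13 and KLF15 higher and KLF2 lower, against 19.3%). In Ctrl edgeR called none at 1 h, against 0.0465% of all genes, and DESeq2 called 1, against 0.0537%. An unadjusted edgeR p under 0.05 was held by 2 KLF genes, against 423 of all 23651 genes. Ctrl had 3 called at 2 h (KLF9, KLF10 and KLF13, against 7.95%) and 2 at 3 h (KLF9 higher and KLF2 lower, against 14.2%).

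The steps between times, which do not use the 0 h libraries, were also tested in the average of the lines. From 1 to 2 h 5 of 10 were called, against 44.9% of all genes: KLF9, KLF10, KLF11 and KLF13 went up and KLF6 went down. The share of KLF genes called in this step, 50%, was thus close to that of all genes. From 2 to 3 h 3 were called (KLF2, KLF10 and KLF11, all lower), against 10% of all genes.

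**Figure D2:**
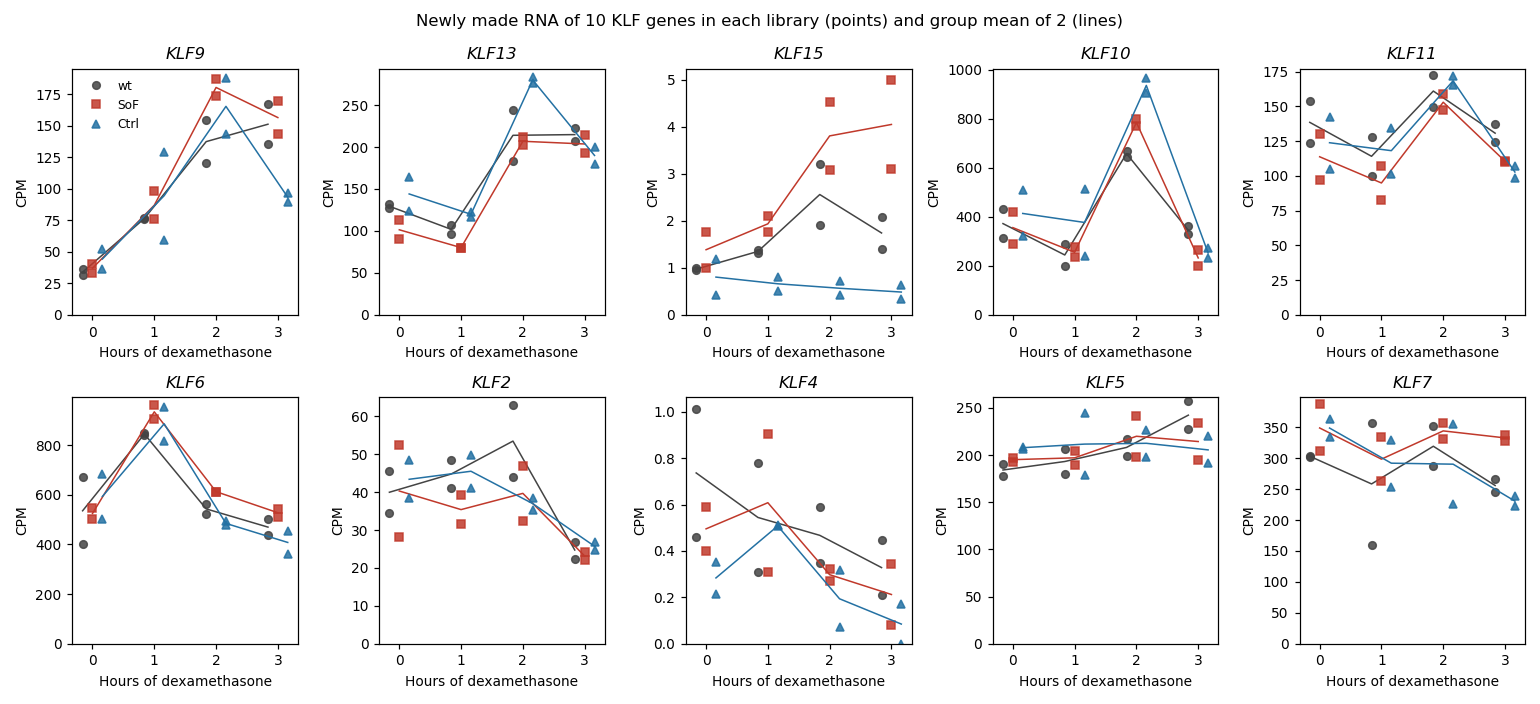
CPM of each KLF gene against hours of dexamethasone, with 1 point for each library (circles wt, squares SoF, triangles Ctrl) and a line through the mean of 2 libraries. KLF9 lay above its 0 h level at each later time in all lines, with a mean that fell from 2 to 3 h in SoF and Ctrl. KLF6 peaked at 1 h, KLF10 at 2 h, and KLF2 was lowest at 3 h, while KLF5 stayed between 178 and 257 CPM.

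**Figure D3:**
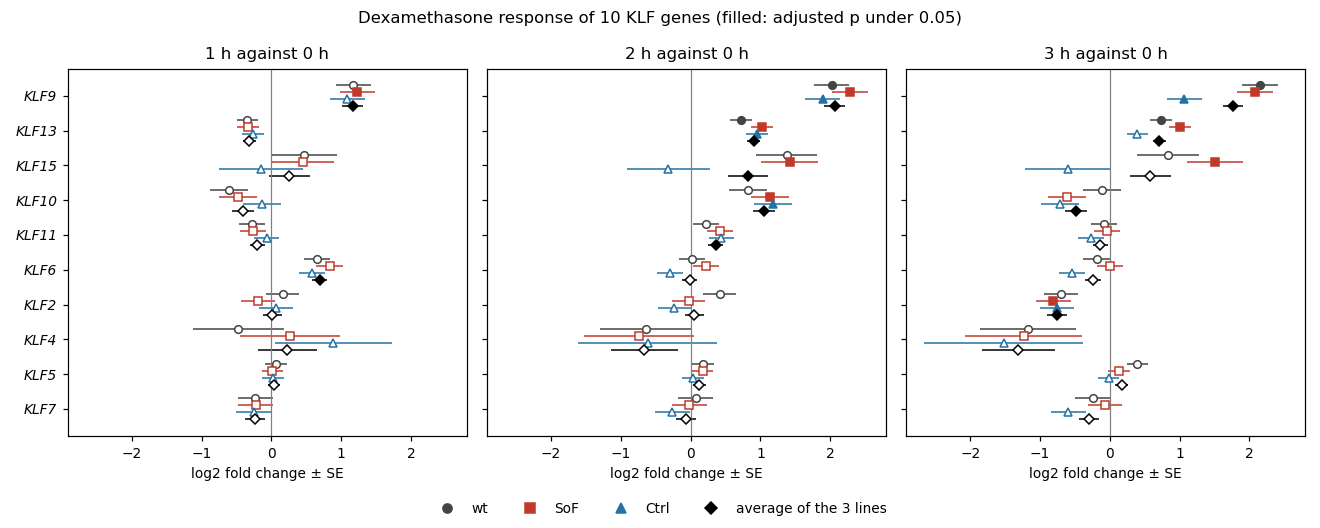
Log2 fold change at 1, 2 and 3 h against 0 h with its standard error for wt (circles), SoF (squares), Ctrl (triangles) and the average of the lines (diamonds). Filled symbols had an edgeR adjusted p under 0.05, and KLF9 is the gene with filled symbols for the average at every time.

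KLF9 (ENSG00000119138, hg38 chr9:70384604-70414657, minus strand) encodes a repressor of the SIN3A-binding group. Its level was above 0 h at every time in the average of the lines, and it had the largest fold change of the 10 at 1, 2 and 3 h. At 0 h it measured 31.8 and 36.0 CPM in wt, 40.6 and 33.4 in SoF, and 52.6 and 36.0 in Ctrl. After 1 h it measured 76.4 and 76.6 CPM in wt, 98.2 and 75.8 in SoF, and 129 and 59.8 in Ctrl. All 6 libraries of 1 h thus lay above all 6 of 0 h, although the pair of Ctrl libraries was far apart.

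KLF9 at 2 h measured 120.3 and 155 CPM in wt, 187 and 174 in SoF, and 188 and 143 in Ctrl. At 3 h it measured 167 and 135 CPM in wt, 169.9 and 143 in SoF, and 89.8 and 97.0 in Ctrl. The 3 h libraries of Ctrl were the lowest of that time, yet still above every 0 h library. From 2 to 3 h the mean rose in wt and fell in SoF and Ctrl. The averaged step of -0.30 (SE 0.14) was not called (edgeR adjusted p = 0.214). The average log2 fold change was 1.16 (SE 0.15, edgeR adjusted p = 6.3e-05) at 1 h, 2.06 (SE 0.15, adjusted p = 1.64e-09) at 2 h and 1.77 (SE 0.15, adjusted p = 5.28e-09) at 3 h, or 2.24-fold, 4.18-fold and 3.41-fold. For the lines taken singly, KLF9 at 3 h gave 2.16 (SE 0.26, edgeR adjusted p = 9.48e-06) in wt, 2.08 (SE 0.26, adjusted p = 8.24e-06) in SoF and 1.07 (SE 0.25, adjusted p = 0.00655) in Ctrl.

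The KLF9 call in SoF at 1 h (log2 fold change 1.23, edgeR adjusted p = 0.0479) stood close to the threshold and was lost on leaving out any of 20 of the 24 libraries, with a log2 fold change between 1.03 and 1.40 over all such fits. The KLF9 call in Ctrl at 3 h was lost without Ctrl 0 h replicate 2 (log2 fold change 0.83, adjusted p = 0.134) and without Ctrl 3 h replicate 2 (1.02, adjusted p = 0.0563). It was kept in the other 22 fits that left out a library.

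GR binds DNA as a dimer on inverted repeats, so the genome around each KLF gene was searched for the core of such an element, GNACANNNTGTNC, which reads the same on both strands. Within 10000 bases on either side of the gene start, 5 of 10 KLF genes held 1 match each, beside 22.83% of 19967 protein-coding genes. None of the 10 held the full palindrome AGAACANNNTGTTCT, which 0.32% of all protein-coding genes did. The matches of 4 genes are given with 8 bases on each side, along the strand of the gene and with the 13 letters of the core in capitals, since they let the letters near KLF9, KLF15 and KLF6, each called higher at some time in the average, be read beside those near KLF5, which was not called.
KLF9: agtaaaaaGGACAAACTGTTCcacaacaa
KLF15: tgtgcccgGAACAGCGTGTCCcctccccc
KLF5: gcactgttGAACAGAGTGTTCaaaaaatg
KLF6: ataaagaaGTACATTCTGTTCaggtgata
The KLF9 match (hg38 chr9:70420118-70420146) lay 5475 bases before the gene start, in an exon of the long non-coding RNA gene ENSG00000289159. The KLF15 match (chr3:126355973-126356001) lay 1421 bases after the start, in an intron of KLF15. The KLF5 match (chr13:73052040-73052068) lay 2922 bases before the start, between genes, and the KLF6 match (chr10:3776786-3776814) lay 8481 bases after the start, in an untranslated part of KLF6. The fifth match lay 5450 bases before the KLF10 start, and KLF2, KLF4, KLF7, KLF11 and KLF13 held none in this window. A match is a description of these letters only, and receptor binding was not measured here.

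The long non-coding RNA gene that holds the KLF9 match was looked at after the match was seen. It lay between 0.589 and 6.15 CPM in the 24 libraries, and its average log2 fold change of 1.01 at 1 h (SE 0.31, edgeR adjusted p = 0.139), 0.45 at 2 h and -0.20 at 3 h for ENSG00000289159 did not pass the test.

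Upstream sequences from RefSeq (GRCh38.p14, the 250 bases before a start) were found for 9 of the 10 genes among 35116 entries. Those of KLF9, KLF13 and KLF2 are shown because KLF9 and KLF13 were the members called higher at both 2 h and 3 h in the average and KLF2 was called lower at 3 h, with 3 motifs, read on both strands, in capitals. The GC box was searched as GGGCGG, the KLF-type motif was searched as CACCC, and the CCAAT box by its own letters, each with its reverse complement.
KLF9: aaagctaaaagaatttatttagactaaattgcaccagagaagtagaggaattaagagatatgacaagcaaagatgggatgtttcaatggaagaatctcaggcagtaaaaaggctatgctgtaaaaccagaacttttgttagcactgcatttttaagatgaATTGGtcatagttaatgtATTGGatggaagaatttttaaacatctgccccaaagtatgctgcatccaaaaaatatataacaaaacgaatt
KLF13: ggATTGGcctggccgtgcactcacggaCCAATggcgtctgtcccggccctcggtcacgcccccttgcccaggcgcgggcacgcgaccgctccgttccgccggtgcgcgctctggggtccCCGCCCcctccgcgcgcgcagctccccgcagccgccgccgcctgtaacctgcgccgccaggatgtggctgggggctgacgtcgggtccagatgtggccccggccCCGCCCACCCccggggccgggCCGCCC
KLF2: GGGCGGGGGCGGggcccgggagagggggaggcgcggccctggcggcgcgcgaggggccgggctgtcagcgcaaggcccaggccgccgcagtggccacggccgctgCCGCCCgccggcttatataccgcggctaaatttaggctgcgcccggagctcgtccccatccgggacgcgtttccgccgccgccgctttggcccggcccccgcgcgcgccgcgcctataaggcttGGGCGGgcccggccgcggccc
The KLF9 sequence (chr9:70414658-70414907) was 32.4% G or C, against a median of 58% over all entries, and held 2 CCAAT motifs and no GC box or CACCC. The KLF13 sequence (chr15:31326585-31326834) was 78.8% G or C and held 3 GC boxes, 1 CACCC that shares a base with one of them, and 2 CCAAT motifs. The KLF2 sequence (chr19:16324576-16324825) was 80% G or C and held 4 GC boxes, the first 2 of them side by side. Of all entries, 42.6% held a GC box, 54.7% CACCC and 32% CCAAT. A single receptor site (AGAACA or its reverse complement) was in 12.4% of all entries, in 1 of 2 KLF5 entries and 1 of 4 KLF7 entries, and in no entry of the other 7 genes found.

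KLF13 (ENSG00000169926, chr15:31326835-31435665, plus strand), a repressor of the same group as KLF9, rose from 2 h on. At 0 h it measured 131 and 127 CPM in wt, 113 and 89.8 in SoF, and 165 and 123 in Ctrl. At 1 h it measured 96.4 and 107 CPM in wt, 79.97 and 80.2 in SoF, and 123 and 117 in Ctrl. The averaged 1 h value was thus below 0 h in each line, at a log2 fold change of -0.32 (SE 0.09) that missed the threshold (edgeR adjusted p = 0.0975).

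KLF13 at 2 h measured 184 and 244 CPM in wt, 212 and 202 in SoF, and 276 and 283 in Ctrl. At 3 h it measured 207 and 223 CPM in wt, 193 and 215 in SoF, and 179.6 and 200.3 in Ctrl. Every library of 2 h and 3 h lay above every library of 0 h. The average rose by a log2 fold change of 0.90 (SE 0.09, edgeR adjusted p = 1.56e-07) at 2 h and 0.71 (SE 0.09, adjusted p = 1.74e-06) at 3 h, and the step from 1 to 2 h was 1.22 (SE 0.09, adjusted p = 2.42e-09). For the lines taken singly, KLF13 at 3 h gave a log2 fold change of 0.73 in wt (adjusted p = 0.0033), 1.00 in SoF (adjusted p = 0.00011) and 0.40 in Ctrl (adjusted p = 0.0912). The wt call at 2 h (0.73, adjusted p = 0.00821) was lost without wt 0 h replicate 2 (0.70, adjusted p = 0.133) and without wt 2 h replicate 2 (0.49, adjusted p = 0.326).

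KLF10 (ENSG00000155090, chromosome 8, minus strand), a TGF-beta-inducible repressor, rose briefly at 2 h. At 0 h it measured 432 and 313 CPM in wt, 421 and 291 in SoF, and 508 and 320.0 in Ctrl, with replicate 2 the lower in each line. At 1 h it measured 199 and 289.5 CPM in wt, 275 and 235 in SoF, and 512 and 242 in Ctrl. Ctrl 1 h replicate 1 stood far above the other 5 libraries of that time.

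At 2 h KLF10 measured 646 and 669.8 CPM in wt, 801 and 769 in SoF, and 906 and 967 in Ctrl, all above every 0 h library. At 3 h it had dropped to 328 and 362 CPM in wt, 199 and 265 in SoF, and 233 and 273 in Ctrl. The average log2 fold change was 1.05 (SE 0.16, edgeR adjusted p = 3.19e-05) at 2 h and -0.48 (SE 0.16, adjusted p = 0.0178) at 3 h. The step up from 1 to 2 h was 1.45 (SE 0.16, edgeR adjusted p = 3.91e-07) and the step down from 2 to 3 h was -1.53 (SE 0.16, adjusted p = 9.81e-07), or 2.88-fold lower.

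The lower KLF10 level at 3 h was no longer called without replicate 1 of 0 h in wt (log2 fold change -0.40, edgeR adjusted p = 0.0621), in SoF (-0.38, adjusted p = 0.0635) or in Ctrl (-0.35, adjusted p = 0.0783), without SoF 3 h replicate 1 (-0.41, adjusted p = 0.0625) or without Ctrl 3 h replicate 1 (-0.44, adjusted p = 0.0503). By line, KLF10 was called at 2 h in SoF (1.14, adjusted p = 0.0137) and Ctrl (1.18, adjusted p = 0.00918) and had a log2 fold change of 0.82 in wt (adjusted p = 0.0846). The SoF call was lost without SoF 0 h replicate 2 (0.89, adjusted p = 0.222) or SoF 2 h replicate 1 (1.12, adjusted p = 0.0943), and the Ctrl call without Ctrl 0 h replicate 2 (0.87, adjusted p = 0.215) or Ctrl 2 h replicate 2 (1.12, adjusted p = 0.0748).

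KLF11 (ENSG00000172059, chr2:10042849-10054836, plus strand), the closest relative of KLF10, followed it with a smaller swing. Its 0 h levels were 154 and 123 CPM in wt, 130.3 and 97.2 in SoF, and 143 and 105 in Ctrl. At 1 h it measured 128 and 99.96 CPM in wt, 107 and 82.4 in SoF, and 135 and 102 in Ctrl, with replicate 2 the lower in each line at both times. The 1 h libraries overlapped those of 0 h.

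KLF11 at 2 h measured 173 and 149 CPM in wt, 159 and 147 in SoF, and 165 and 172 in Ctrl. At 3 h it measured 137 and 124 CPM in wt, 111 and 110.2 in SoF, and 98.3 and 107 in Ctrl. The average log2 fold change of KLF11 at 2 h was 0.36 (SE 0.11, edgeR adjusted p = 0.0135), with overlap between the 2 h and 0 h libraries. It stepped up by 0.57 from 1 to 2 h (SE 0.11, adjusted p = 0.000219) and down by a log2 fold change of -0.49 from 2 to 3 h (SE 0.11, adjusted p = 0.00336). The 2 h call was lost without replicate 2 of 0 h in wt (0.30, adjusted p = 0.0627), in SoF (0.29, adjusted p = 0.0601) or in Ctrl (0.28, adjusted p = 0.0614). An antisense gene with 50 counts in all overlaps KLF11 exons.

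KLF15 (ENSG00000163884, chr3:126342635-126357408, minus strand), which in muscle and liver controls amino acid and glucose use, was scarce, with 4 to 62 counts per library. At 0 h it measured 0.944 and 1.00 CPM in wt, 1.77 and 1.00 in SoF, and 0.429 and 1.18 in Ctrl. At 1 h it measured 1.39 and 1.31 CPM in wt, 2.11 and 1.76 in SoF, and 0.816 and 0.506 in Ctrl. In wt both 1 h libraries were above both of 0 h, in Ctrl both lay within the 0 h range, and in SoF only the first exceeded both.

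KLF15 at 2 h measured 1.91 and 3.21 CPM in wt, 4.54 and 3.08 in SoF, and 0.422 and 0.71 in Ctrl. At 3 h it measured 2.09 and 1.40 CPM in wt, 5.01 and 3.10 in SoF, and 0.339 and 0.63 in Ctrl. SoF was thus the highest and Ctrl the lowest at 3 h, with no overlap among the lines. In SoF KLF15 was called at 2 h (log2 fold change 1.42, SE 0.41, edgeR adjusted p = 0.0413) and 3 h (1.51, SE 0.41, adjusted p = 0.0116), or 2.85-fold at 3 h. Its log2 fold change in wt was 1.38 (SE 0.44, adjusted p = 0.0714) at 2 h and 0.83 at 3 h. Ctrl gave -0.32 and -0.60, with standard errors of 0.59 and 0.62.

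The averaged KLF15 response at 2 h, 0.83 (SE 0.28, edgeR adjusted p = 0.0327), was lost in 7 of the 24 fits that left out a library, with log2 fold changes from 0.59 to 1.07 over all 24. These 7 left out a replicate of wt 0 h (either), wt 2 h (2), SoF 0 h (2), SoF 2 h (1), Ctrl 0 h (1) or Ctrl 2 h (2), and DESeq2 gave an adjusted p of 0.0546. The SoF call of KLF15 at 2 h was lost in 6 such fits and under DESeq2 (adjusted p = 0.0653), with log2 fold changes from 1.098 to 1.92. The SoF call at 3 h was lost without SoF 0 h replicate 2 (1.19, adjusted p = 0.142) and SoF 3 h replicate 1 (1.12, adjusted p = 0.165). The averaged value at 3 h, 0.58 (adjusted p = 0.122), became called only without Ctrl 0 h replicate 2 (0.84, adjusted p = 0.0454).

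KLF6 (ENSG00000067082, chr10:3775996-3785281, minus strand), an immediate early activator that is also described as a growth suppressor, rose at 1 h and fell back. Its 0 h levels were 401 and 671 CPM in wt, 501 and 549 in SoF, and 504 and 683 in Ctrl. At 1 h it measured 839 and 851 CPM in wt, 963 and 907 in SoF, and 817 and 956 in Ctrl. Every 1 h library exceeded every 0 h library, and the log2 fold change of 0.69 (SE 0.11, edgeR adjusted p = 0.000843) was a 1.61-fold rise.

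KLF6 returned at 2 h to 522 and 565 CPM in wt, 613 and 613 in SoF, and 493 and 477 in Ctrl. At 3 h it measured 502 and 438 CPM in wt, 543 and 513 in SoF, and 455 and 362 in Ctrl. The step from 1 to 2 h was a log2 fold change of -0.71 (SE 0.11, edgeR adjusted p = 2.58e-05). Within lines the 1 h log2 fold change of KLF6 was 0.66 for wt, 0.83 for SoF and 0.58 for Ctrl, with edgeR adjusted p values of 0.236, 0.0948 and 1. At 3 h the average of -0.24 was not called (adjusted p = 0.0836), and it was called without wt 0 h replicate 1 (-0.35, adjusted p = 0.00592) and without Ctrl 0 h replicate 1 (-0.30, adjusted p = 0.0341).

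KLF2 (ENSG00000127528, chr19:16324826-16328685, plus strand), known for keeping endothelial cells and T cells quiescent, fell late. Its 0 h levels were 45.5 and 34.5 CPM in wt, 52.6 and 28.1 in SoF, and 48.4 and 38.4 in Ctrl. At 1 h it measured 41.2 and 48.4 CPM in wt, 39.1 and 31.7 in SoF, and 41.2 and 49.9 in Ctrl. At 2 h it measured 44.02 and 63.0 CPM in wt, 47.0 and 32.4 in SoF, and 35.4 and 38.6 in Ctrl. The libraries of these 3 times overlapped.

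KLF2 at 3 h measured 27.0 and 22.5 CPM in wt, 24.2 and 22.1 in SoF, and 26.8 and 24.7 in Ctrl, all below every 0 h library. The average log2 fold change at 3 h was -0.75 (SE 0.14, edgeR adjusted p = 0.000195), or 1.69-fold lower, and the step from 2 to 3 h was -0.80 (SE 0.14, adjusted p = 0.000477). By line, KLF2 had a 3 h log2 fold change of -0.69 in wt (adjusted p = 0.0689), -0.81 in SoF (adjusted p = 0.0237) and -0.76 in Ctrl (adjusted p = 0.0404). The SoF call was lost without SoF 0 h replicate 1 (-0.27, adjusted p = 0.472), SoF 3 h replicate 1 (-0.88, adjusted p = 0.0854) or SoF 3 h replicate 2 (-0.74, adjusted p = 0.147). The Ctrl call was lost without either Ctrl 0 h library, either Ctrl 3 h library or Ctrl 2 h replicate 1, with log2 fold changes of KLF2 between -0.91 and -0.56 over all 24 such fits.

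KLF4 (ENSG00000136826, chr9:107484852-107490482, minus strand), a pluripotency and epithelial factor, had at most 15 counts in a library. Its level lay between 0.214 and 1.01 CPM at 0 h and between 0 and 0.447 CPM at 3 h. The library with 0 counts, Ctrl 3 h replicate 2, allows a KLF4 level of up to 0.27 CPM (3 counts). The 3 h average of -1.31 (SE 0.53) just missed the threshold (edgeR adjusted p = 0.0511), and it passed without wt 0 h replicate 2 (adjusted p = 0.0404), wt 3 h replicate 1 (adjusted p = 0.0463), SoF 3 h replicate 2 (adjusted p = 0.0326) or Ctrl 3 h replicate 1 (adjusted p = 0.0248), and with a replicate block (-1.27, adjusted p = 0.0377). Over the 24 fits that left out a library the KLF4 value ranged from -2.38 to -1.01. A long non-coding RNA on the opposite strand overlaps KLF4 exons.

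KLF5 (ENSG00000102554, chr13:73054976-73077541, plus strand), an activator of proliferation in epithelium and smooth muscle, was the steadiest of the 10, with its highest library 1.44 times its lowest. Its averaged log2 fold change was 0.04 at 1 h, 0.13 at 2 h and 0.17 at 3 h, with a 95% interval of -0.01 to 0.36 at 3 h. KLF7 (ENSG00000118263, chr2:207074137-207173856, minus strand), an activator studied in neurons and fat cells, lay between 160.1 and 387 CPM, and its lowest library, wt 1 h replicate 1, had a partner at 357 CPM. Its averaged log2 fold change was -0.24 at 1 h, -0.07 at 2 h and -0.30 at 3 h (SE 0.14, edgeR adjusted p = 0.0991). The KLF7 value at 3 h was called in 2 of 24 fits that left out a library, those without wt 1 h replicate 1 (-0.30, adjusted p = 0.0315) or replicate 2 (-0.30, adjusted p = 0.0314), and without the filter on low counts (-0.30, adjusted p = 0.0107). Exons of MYOSLID, an antisense gene with 19342 counts against 85845 for KLF7, overlap KLF7. Since strand use in counting is stated only by a file title, the KLF7 level is uncertain by an amount that was not measured.

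Whether the response depended on the receptor was asked by the difference between lines in the 3 h log2 fold change. For SoF minus Ctrl edgeR and DESeq2 called none of the 10 KLF genes, against 0.0127% of all genes with edgeR and 0.12% with DESeq2. An unadjusted edgeR p under 0.05 was held by 3 KLF genes, against 671 of all 23651 genes. Both methods called none for SoF minus wt or for Ctrl minus wt, against 0% of all genes in both with edgeR. An unadjusted edgeR p under 0.05 was held by 0 KLF genes for SoF minus wt, against 558 of all 23651 genes. For Ctrl minus wt it was held by 1 KLF gene, against 845 of all genes. For SoF minus Ctrl the values were 1.01 for KLF9 (95% interval 0.28 to 1.74, unadjusted p = 0.00914, adjusted p = 1), 0.61 for KLF13 (95% interval 0.15 to 1.06) and 2.11 for KLF15 (95% interval 0.57 to 3.65). For SoF minus wt, KLF9 differed by -0.08 (95% interval -0.81 to 0.65), a value whose sign turned on leaving out single libraries. For Ctrl minus wt, KLF9 differed by -1.09 (95% interval -1.82 to -0.36). Without the filter on low counts, KLF9 was called for SoF minus Ctrl (1.03, edgeR adjusted p = 0.0306) and for Ctrl minus wt (-1.09, adjusted p = 0.0323). Of all 48707 genes tested without the filter, 52 and 17 were called in these 2 differences.

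**Figure D4:**
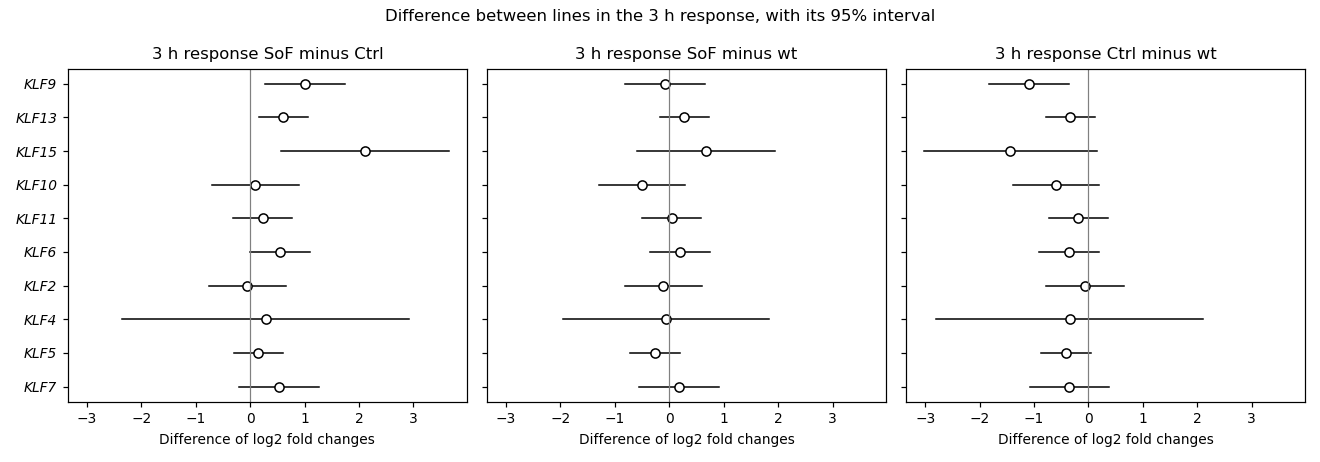
Difference between lines in the 3 h log2 fold change of each KLF gene (points) with its 95% interval (bars), for SoF minus Ctrl, SoF minus wt and Ctrl minus wt. No gene passed the edgeR test after adjustment, and for SoF minus Ctrl the intervals of KLF9, KLF13 and KLF15 lie to the right of 0.

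The level of the genes between lines, with time ignored, was compared with 8 libraries a line in a fit of 21122 genes, in which KLF4 was not tested. For SoF against wt edgeR called none of 9, against 8.02% of all genes, and DESeq2 called 0, against 9.02%. An unadjusted edgeR p under 0.05 was held by 1 KLF gene, against 5308 of all 21122 genes. For Ctrl against wt 1 was called against 4.77%, and for SoF against Ctrl 1 against 3.61%, both KLF15. KLF15 lay between 0.944 and 3.21 CPM in wt with a median of 1.39, between 1.00 and 5.01 CPM in SoF with a median of 2.59, and between 0.339 and 1.18 CPM in Ctrl with a median of 0.568. It was lower in Ctrl than in wt by a log2 difference of -1.40 (SE 0.34, edgeR adjusted p = 0.0161) and higher in SoF than in Ctrl by 2.18 (SE 0.33, adjusted p = 0.000113), or 4.52-fold. For SoF against wt the KLF15 difference was 0.78 (SE 0.29, adjusted p = 0.0934). At 0 h alone, from the fit over line and time, the KLF15 differences were -0.40 for Ctrl against wt (adjusted p = 0.745) and 0.94 for SoF against Ctrl (adjusted p = 0.781).

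For the other 8 genes tested, the log2 differences in level between lines lay between -0.30 (KLF13, SoF against Ctrl) and 0.29 (KLF10, Ctrl against wt), and none was called. With time as an added term, 1 KLF gene was called for SoF against wt (KLF15, against 29% of all genes), 1 for Ctrl against wt (KLF15, against 18.8%) and 2 for SoF against Ctrl (KLF13 and KLF15, against 13.3%).

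Likeness among the genes was described by the Pearson correlation of the 12 group means of log2 CPM. Among the 10, KLF10 and KLF11 were most alike (r = 0.909) and KLF6 and KLF13 least (r = -0.697). All points share the same libraries. The genes named next were picked as the highest of many over only 12 points, so high values come in part from that choice. Among 19643 genes of at least 1 CPM on average, those most like KLF9 were the non-coding gene ENSG00000284633 (0.982), OLAH (0.974) and the non-coding gene ENSG00000260563 (0.97), and those most like KLF13 were USP27X (0.988), CCND1 (0.984) and TXN (0.984). KLF10 was nearest to ACTN1 (0.964), DNAJB5-DT (0.948) and XRN2 (0.944), KLF11 to OLIG2 (0.961), DAP (0.951) and RHOC (0.943), and KLF6 to LINC03002 (0.966), LINC01572 (0.94) and TMCO1-AS1 (0.926). KLF15 was nearest to FAM111A-DT (0.923), CPEB4 (0.915) and UCA1 (0.91), and KLF2 to TCAF2C (0.937), MARVELD3 (0.927) and GGA2 (0.927). KLF4 was nearest to ARHGDIB (0.96), CHEK1 (0.953) and LPP-AS2 (0.95), KLF5 to ENSG00000268870 (0.895), GGNBP2 (0.876) and ENSG00000289183 (0.862), and KLF7 to ENSG00000270179 (0.877), RDH13 (0.836) and ZNF222 (0.825). With at most 15 counts in a library for KLF4 and 62 for KLF15, the values of these genes also carry much counting error.

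The rest of the family and its partners were counted in the averaged 3 h response, in which 40.3% of all genes were called, so that counts of 9 of 12, 2 of 8, 4 of 9, 2 of 7 and 3 of 8 in the lists that follow stand beside that share and are not read as particular to a list. Of 17 other KLF and SP genes, which share the zinc finger domain, 12 were tested, 5 rose and 4 fell, with a median log2 fold change of 0.18 beside -0.03 over all genes. The largest of those called at 3 h were SP8 (0.76, edgeR adjusted p = 0.000184), KLF8 (-0.74, adjusted p = 0.0466) and KLF14 (0.64, adjusted p = 0.0201). At 2 h, when 28.8% of all genes were called, 4 of the 12 were called higher and none lower. These were KLF16 (1.07, edgeR adjusted p = 5.17e-05), KLF14 (0.71, adjusted p = 0.0155), SP8 (0.61, adjusted p = 0.00254) and KLF3 (0.51, adjusted p = 0.00151). None of the 12 was called at 1 h. Of the 8 genes of the ERK5 and MEF2 route, which drives KLF2 and KLF4 in endothelium, MAPK7, the gene of ERK5 (0.53, adjusted p = 0.000315), and MEF2A (0.47, adjusted p = 0.00103) rose at 3 h and none was called lower at that time. In the same list MEF2D was lower at 1 h (-0.48, adjusted p = 0.0168), when 1.28% of all genes were called. MAP3K3 (-0.33, adjusted p = 0.0245) and MAP2K5 (-0.33, adjusted p = 0.0445) were lower at 2 h, when 28.8% of all genes were called. MAPK7 was already higher at 2 h (0.46, adjusted p = 0.002).

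Of 9 corepressor and acetyltransferase genes 3 rose and 1 fell, with CTBP2 at 0.45 (edgeR adjusted p = 0.000272), SIN3B at 0.30 (adjusted p = 0.0136) and HDAC1 at 0.27 (adjusted p = 0.00759), while CREBBP fell by 0.18 on the log2 scale. SIN3A, the partner of the KLF9 group, had a log2 fold change of 0.06 and was not called. KAT2B of the same list was called lower at 2 h (-0.50, edgeR adjusted p = 0.00575) and was not called at 3 h. Of 7 ubiquitin ligases reported for KLF proteins 2 rose, SMURF1 (0.44, adjusted p = 0.000139) and SMURF2 (0.31, adjusted p = 0.01), and none was called lower at 3 h. At 2 h WWP1 (-0.43, adjusted p = 0.000791) and BTRC (-0.47, adjusted p = 0.00282) were lower, when 28.8% of all genes were called. SMURF1 was already higher at 2 h (0.36, adjusted p = 0.00187). Of 10 genes known as KLF targets 8 were tested and 3 rose: THBD, a thrombin receptor gene (1.68, adjusted p = 0.000222), SLC2A4, which encodes the insulin-regulated glucose transporter (1.42, adjusted p = 3.37e-07), and CCND1, a cell cycle cyclin gene (0.64, adjusted p = 2.1e-05). The median over the 8 targets was 0.40. The same 3 genes were the only targets called at 2 h, all higher. Between lines, FBXW7 was higher in SoF than in wt (0.33, adjusted p = 0.0246) and than in Ctrl (0.45, adjusted p = 0.00286). SIN3A was lower in SoF than in Ctrl (-0.21, adjusted p = 0.0433). No other gene of these lists was called between lines. The shares of all genes called were 8.02% for SoF against wt, 4.77% for Ctrl against wt and 3.61% for SoF against Ctrl.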

How the data were processed

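4sU-seq libraries from 3 U2OS lines (wt, SoF and Ctrl GR) at 0, 1, 2 and 3 h of dexamethasone, 2 per line and time, were analysed from 1 table of read counts per gene. Per the labels and the methods of the study, the authors removed duplicate molecules with UMI-tools 1.1.2, trimmed with Trim Galore 0.6.6, aligned to hg38 with STAR 2.7.3a and counted reads over exons with featureCounts; the deposited values are whole counts with no normalization. Strand use in counting is stated by a file title alone. Symbols and positions came from GENCODE release 44 (99.7% of rows matched).

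Here edgeR 4.0.16 under R 4.3.3 was run on the counts, with TMM factors, filterByExpr (minimum count 10, minimum total 15) and the quasi-likelihood F test. P-values were adjusted by Benjamini-Hochberg over all genes tested and called under 0.05. All 24 libraries entered a fit over 12 groups of line and time, without a replicate term, and a fit on line alone, where time adds to the spread: the common biological coefficient of variation was 14.2% and 24.0%. SE is the size of the log2 fold change over the square root of F, and 95% intervals use the t quantile of the fit. CPM use the TMM factors, and log2 CPM a prior count of 2. The scripts were tested on simulated data. DESeq2 1.42.0, no filter, other size factors, other designs and leaving out each library were tried.

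The 10 genes, the lists of partners and the markers were chosen with earlier results of these data known. All 10 genes are described. Those called in an averaged response or between lines get every library, and the others ranges. Per list at most 3 genes called in the averaged 3 h response are named, by size. Also named, after their values were seen, are SIN3A, CREBBP and FBXW7. So are the genes called at 1 or 2 h in each list. For each gene the 3 of highest correlation are named. Limits on a count of 0 cover counting error only. Intervals also take in the spread between libraries that the fit estimated. Sequences came from RefSeq (GRCh38.p14) and the hg38 genome, and those of chromosome 8 are not shown here.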

Additional observations from a re-analysis of the deposited data

Results flagged for a closer look

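Dixon's test was run in 70 sets of libraries: each of the 10 KLF genes at each time, 6 libraries, and in each line, 8 libraries. It flagged 1 library as apart from its set. In sets of like libraries chance alone flags about 1 set in 20. These sets pool lines or times, so that rate does not apply and the flag is a description. It was Ctrl 1 h replicate 1 for KLF10, at 512 CPM beside 289.5 CPM for the next highest and 199 CPM for the lowest of the 1 h libraries. KLF9 was also higher in that library (129 CPM) than in Ctrl 1 h replicate 2 (59.8 CPM). Leaving it out kept the averaged step of KLF10 from 1 to 2 h called, as it was in all 24 such fits (log2 fold change 1.31 to 1.67). The cause was not tested.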

How the results depend on the processing

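Under the alternatives that kept all libraries, 78 of 98 counts of KLF genes called stayed within 1.5 times of the reported count, and of single-gene values 236 kept their side of the threshold, 5 lost the call, 6 gained it and 0 turned. For members at 1 h, each count is given with the share of all genes called under the same setting. For wt there was 1 call with DESeq2 (0.515%), 3 without the filter (1.06%), 1 with the replicate block (0.249%) and 1 when fitted alone (0.0995%). SoF had 2 with DESeq2 (0.407%), 2 without the filter (0.503%) and 2 when fitted alone (0.244%), but 0 with DESeq2 size factors (0.148%). Ctrl had 1 with DESeq2 (0.0537%) and 1 without the filter (0.0903%). The average had 4 without the filter (2.12%). Members called without the filter numbered 4 for wt at 2 h (3.5% of all genes) and 5 for Ctrl at 3 h (7.37%). DESeq2 called 4 for Ctrl at 3 h (16.9%). For the difference at 3 h, 1 member was called without the filter both for SoF minus Ctrl (0.107% of all genes) and for Ctrl minus wt (0.0349%). For the level between lines, members called with a time term numbered 1 for SoF against wt and 2 for SoF against Ctrl, where calls over all genes went from 1693 to 6134 (29%) and from 763 to 2814 (13.3%), and at 0 h alone 0 for Ctrl against wt and 0 for SoF against Ctrl (0.309% and 0.347% of all genes). The causes were not tested.

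Leaving out each library in turn, members called ranged from 0 to 1 for wt, SoF and Ctrl at 1 h and for the level of SoF against wt, from 1 to 3 for wt at 2 h, from 2 to 4 for SoF at 2 h and 3 h and Ctrl at 2 h, from 0 to 3 for Ctrl at 3 h and from 3 to 5 for the average at 2 h. In such fits a group left with 1 library is assumed to vary like the others. The KLF9 difference SoF minus wt, not called in any, ranged from -0.22 to 0.077 and so changed sign.

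Replicate numbers are shared by the groups, but no source says that a number marks a common culture or day. The deviations of same-numbered libraries correlated over 23651 genes with a median of 0.038 between pairs of groups (-0.221 to 0.568, 21 of 66 over 0.1), and with 0.394 to 0.568 among the 3 groups of 0 h. With a replicate block, the members called were the same in number but for 1 at wt 1 h, 4 at Ctrl 2 h and 5 in the average at 3 h, where KLF4 was called (log2 fold change -1.27, adjusted p = 0.0377).

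Over all genes, the calls in the averages were within 1.5 times of those reported for every alternative that kept all libraries, but for the 1 h average (303 genes) without the filter (1035). In wt at 1 h they went from 37 to 105 with DESeq2 and to 516 without the filter, and in SoF at 1 h from 39 to 79 and 245. Leaving out a library, calls over all genes ranged from 164 to 1002 for the average at 1 h (reported 303) and from 1564 to 2578 for its step from 2 to 3 h (2366). In wt they ranged from 13 to 118, 144 to 1378 and 953 to 2811 at 1, 2 and 3 h, in SoF from 14 to 52, 424 to 2096 and 1772 to 5542, and in Ctrl from 9 to 12, 346 to 3257 and 983 to 4560, so the shares of all genes printed beside the counts carry that range. Depth limits KLF4 and KLF15, with at most 15 and 62 counts in a library.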
